A study of Mus musculus with 6 samples.

Results

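The miR-181 family was described in Ago-bound small RNAs of mouse brain. Members were the rows whose miRNA annotation was mmu-miR-181a-5p, mmu-miR-181b-5p, mmu-miR-181c-5p, mmu-miR-181d-5p, mmu-miR-181a-1-3p or mmu-miR-181c-3p, written below without the species prefix. These 6 of the 782 mature miRNAs with reads held 339 of the 65087 sequences above 0. The table covered 2 groups, WT and Tau tg, with 3 samples each. Both groups were male mice of the C57BL/6J background at 3 months of age, per the study's methods. Tau tg mice carried human tau45-230, a fragment of the microtubule-binding protein tau, under the Thy 1.2 promoter, which is active mainly in neurons. WT mice lacked the transgene. A small RNA table cannot show the transgene, so the genotypes were not checked here. The labels name hippocampus as the source but describe RNA from cortex and hippocampus combined. The labels give 3 samples and the methods 3 mice per group, whereas a figure legend speaks of quadruplicate samples. The labels do not tie samples to animals, so p-values measure the spread between these samples, which may be technical.

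MicroRNAs are cut from hairpin precursors by Drosha and Dicer, and 1 strand of the resulting duplex is loaded into an Ago protein. The loaded strand finds target mRNAs mainly through its seed near the 5′ end. A pulldown with a GW182 peptide, which binds Ago proteins, therefore measures loaded strands rather than all miRNA in the tissue. miR-181 is best known for tuning T cell receptor signalling. In the brain it is found in neurons and astrocytes, where it acts on glutamate receptor and stress survival genes. In whole tissue, fewer cells of a type and less RNA per cell cannot be told apart.

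The mature sequences are shown because the seeds that members share set them apart by arm. They are from RefSeq (GRCm38.p6), written 5′ to 3′, with the seed at positions 2 to 8 in capitals.

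miR-181a-5p: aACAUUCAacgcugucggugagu
miR-181b-5p: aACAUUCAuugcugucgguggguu
miR-181c-5p: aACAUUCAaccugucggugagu
miR-181d-5p: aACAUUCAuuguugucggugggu
miR-181a-1-3p: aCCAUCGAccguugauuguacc
miR-181c-3p: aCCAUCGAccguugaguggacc

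All 4 5p members share the seed ACAUUCA, and both 3p members share CCAUCGA. Counted from the 5′ end, miR-181b-5p and miR-181d-5p differ by C12U alone over 23 shared positions. miR-181a-5p and miR-181b-5p differ by A9U, C10U and A21G. The 3p members differ by U16G and U19G, both outside the seed.

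The family is made from 6 hairpins in 3 pairs of neighbours, given here in GRCm38 with GENCODE M21 annotation. Mir181a-1 (chr1:137966455-137966541, plus strand) and Mir181b-1 (chr1:137966639-137966718, plus strand) lie in an exon of the long noncoding RNA A430106G13Rik. Mir181a-2 (chr2:38852735-38852810, plus strand) and Mir181b-2 (chr2:38853830-38853918, plus strand) lie in an intron of Nr6a1, a nuclear receptor gene on the opposite strand. Mir181c (chr8:84178873-84178961, minus strand) and Mir181d (chr8:84178716-84178787, minus strand) lie in an intron of Nanos3, a germ cell gene on the same strand. The a-1 and a-2 hairpins give the same miR-181a-5p, and no miR-181a-5p read told them apart. For miR-181b-5p, sequences found only in Mir181b-2 made up 0.632% to 4.57% of its reads, and those found only in Mir181b-1 at most 0.0285%.

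Values are RPM, reads of a sequence as the authors scaled them to the size of each library. The table kept 998248 to 6879551 reads per library, most in Tau tg 1. A limit of 3 reads corresponded to 0.427 to 2.75 RPM. Annotated miRNAs took 82.7% to 92.4% of reads. Neuron marker miRNAs summed to 150864 to 164906 RPM in WT brain and 152713 to 174239 RPM in Tau tg brain, and 0 of 5 had a limma p under 0.05. The sum joins log2 fold changes of both signs, at -0.36 for miR-124-3p and 0.53 for miR-9-5p. miR-128-3p, miR-138-5p and miR-218-5p stood at 0.31, 0.14 and 0.37. None of the 4 oligodendrocyte, 6 immune, 4 vascular or 3 red blood cell markers had a limma p under 0.05 either. Of 8 epithelial, choroid plexus or pituitary markers, 4 were lower in Tau tg at a limma p under 0.05, against 3.63% of all miRNAs tested. After adjustment 0 were. The 4 were miR-200a-3p, miR-200b-3p, miR-200c-3p and miR-429-3p (log2 fold changes of Tau tg over WT of -1.21, -1.79, -1.30 and -3.09). Of the others, miR-141-3p stood at -0.66, and miR-204-5p, miR-448-3p and miR-375-3p stood at 0.61, 1.39 and 0.54. The summed level of this list was 4935 to 14804 RPM in WT brain and 4513 to 10782 RPM in Tau tg brain. Its part in the results below was not tested.

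Ranked by RPM, the 5p seed of the family stood 12th to 18th among 6mer seeds. The 6 members summed to 17545, 14704 and 15896 RPM in WT brain and to 19383, 16705 and 12407 RPM in Tau tg brain. This was 1.89% to 2.1% of miRNA reads in WT and 1.49% to 2.14% in Tau tg. The lowest and the highest sum were both Tau tg samples.

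mmu-miR-181a-5p, the main product of both a hairpins, was at 11987, 10711 and 10365 RPM in WT brain and at 13309, 12030 and 8285 RPM in Tau tg brain. It ranked 16th to 29th among miRNAs, with the lowest rank in Tau tg 3. mmu-miR-181b-5p was at 3810, 2527 and 3771 RPM in WT brain and at 3988, 2982 and 2747 RPM in Tau tg brain. The groups overlapped for both.

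mmu-miR-181c-5p, from the chromosome 8 pair, was at 841, 804 and 897 RPM in WT brain and at 1071, 651 and 602 RPM in Tau tg brain. Tau tg 1 lay above and the other Tau tg samples below every WT sample. Its neighbour mmu-miR-181d-5p was at 540, 378 and 629 RPM in WT brain and at 591, 600 and 388 RPM in Tau tg brain, with overlapping groups.

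mmu-miR-181a-1-3p, the opposite strand of the a-1 hairpin, was at 216, 272 and 200 RPM in WT brain and at 263, 254 and 320 RPM in Tau tg brain. mmu-miR-181c-3p, the opposite strand of miR-181c-5p, varied most between samples of 1 group, at 151, 11.5 and 33.9 RPM in WT brain and at 162, 187 and 65.5 RPM in Tau tg brain. Both groups overlapped for each 3p member. The miR-181c-3p values rest on 322, 17 and 37 reads in WT and on 1138, 224 and 160 reads in Tau tg.

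**Figure D1:**
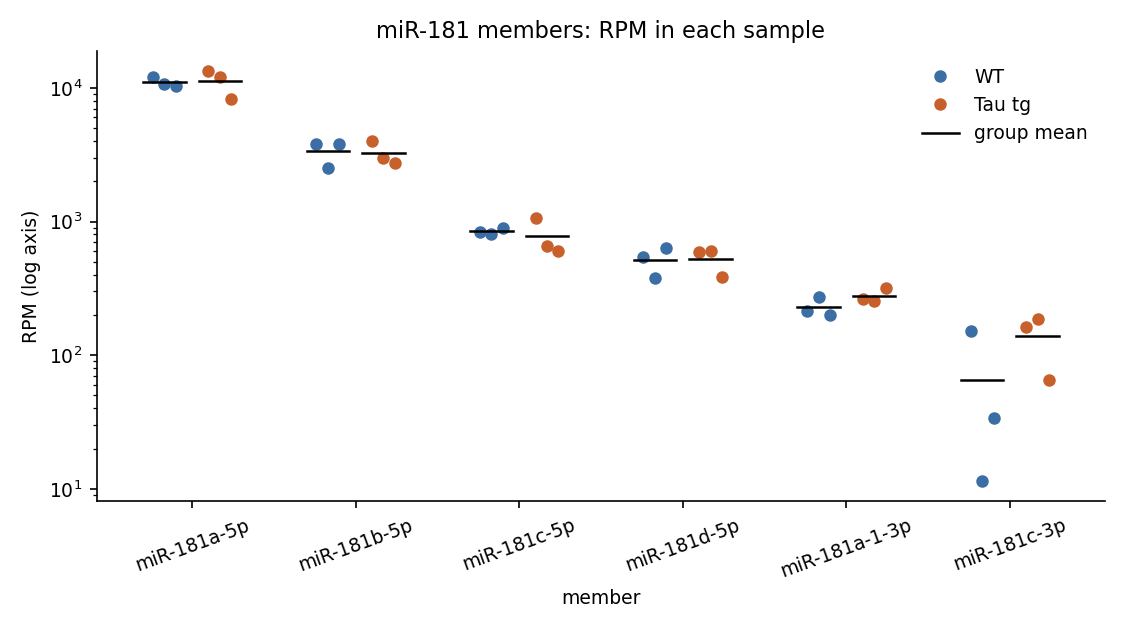
RPM of the 6 members (horizontal axis) in each sample on a log axis, with WT in blue, Tau tg in orange and group means as black lines. The miR-181a-5p points lie between 8285 and 13309 RPM and those of miR-181c-3p between 11.5 and 187 RPM, and the groups overlap for all 6 members.

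The order of levels was miR-181a-5p, miR-181b-5p, miR-181c-5p, miR-181d-5p, miR-181a-1-3p and miR-181c-3p in every sample. miR-181a-5p exceeded miR-181b-5p 2.75- to 4.24-fold, and miR-181b-5p exceeded miR-181c-5p 3.15- to 4.58-fold. The ratio of miR-181c-5p to miR-181d-5p was 1.09 to 2.13, and the ranges of these neighbours overlapped over the 6 samples. miR-181d-5p was 1.21- to 3.15-fold above miR-181a-1-3p, and miR-181a-1-3p 1.36- to 23.6-fold above miR-181c-3p. Read levels of different sequences also carry the ligation preference of the library kit, which was not corrected.

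The question of the comparison was whether loading of the family differed between Tau tg and WT brain. None of the 6 members passed limma at an unadjusted p under 0.05, and none after adjustment, against 3.63% of the 689 miRNAs tested at the unadjusted limit. The groups overlapped in all 6 members, while they did not in 9.53% of miRNAs above 0 in every sample. Fold changes are on the log2(RPM + 1) scale, Tau tg over WT. The median of all miRNAs tested stood at 0.25 on that scale (0.09 under median-of-ratios scaling and 0.06 under quantile normalization). Relative to that 0.25, the members stood at -0.25 (miR-181a-5p), -0.30 (miR-181b-5p), -0.42 (miR-181c-5p), -0.21 (miR-181d-5p), 0.04 (miR-181a-1-3p) and 1.40 (miR-181c-3p), and each interval so shifted also included 0.

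miR-181a-5p had a mean of 11021 ± 854 RPM in WT brain and 11208 ± 2611 RPM in Tau tg brain (SD, n = 3 each). Its log2 fold change was -0.00 (SE 0.31), and the 95% interval of the ratio was 0.634 to 1.57 (limma adjusted p = 0.998). Changes within that interval in either direction are compatible with these samples, and the interval is not a limit of detection. miR-181b-5p had means of 3369 ± 729 and 3239 ± 659 RPM, with a log2 fold change of -0.05 (SE 0.31), an interval of -0.71 to 0.61 and a limma adjusted p of 0.976.

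For miR-181c-5p the means were 847 ± 47 and 775 ± 258 RPM, and the log2 fold change was -0.18 (SE 0.34, interval -0.90 to 0.55, limma adjusted p = 0.942). The Tau tg samples lay on both sides of the WT range. For miR-181d-5p the means were 516 ± 127 and 526 ± 120 RPM, and the log2 fold change was 0.03 (SE 0.37, interval -0.75 to 0.81, limma adjusted p = 0.987). Its sign turned under median-of-ratios scaling, to -0.13.

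The 3p strands had the higher estimates. miR-181a-1-3p had means of 229 ± 38.1 and 279 ± 35.6 RPM and a log2 fold change of 0.28 (SE 0.39, interval -0.55 to 1.12, limma adjusted p = 0.896). miR-181c-3p had means of 65.4 ± 74.8 and 138 ± 64.3 RPM and a log2 fold change of 1.65 (SE 0.81, interval -0.07 to 3.36, limma adjusted p = 0.896), over the unadjusted limit. Library WT 1, which stood near the Tau tg samples, decided this value. Without it the log2 fold change was 2.60, under the unadjusted limit (limma adjusted p = 0.299), and without WT 2 it was 0.80.

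**Figure D2:**
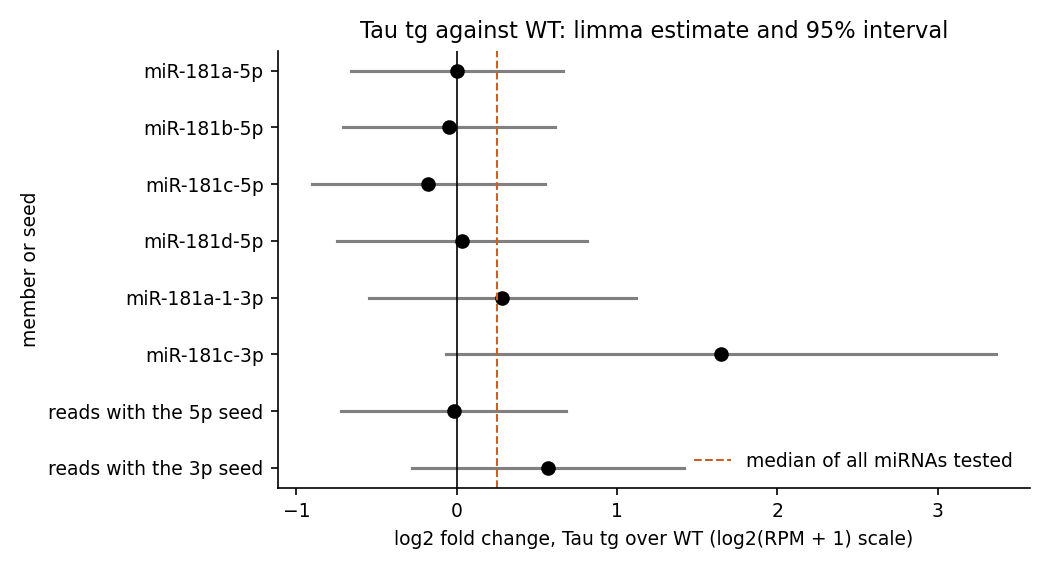
Log2 fold change of Tau tg over WT on the log2(RPM + 1) scale (points) with 95% intervals (grey lines) for the 6 members and for all reads with the 5p or 3p family seed. Every interval includes 0, and the 5p members lie between -0.18 and 0.03, to the left of the dashed line at the median of all miRNAs, 0.25.

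The proportions of the family were described by 14 share measures, for which the smallest exact two-sided permutation p is 0.1. Among 5p reads, miR-181a-5p took 69.8%, 74.3% and 66.2% in WT and 70.2%, 74% and 68.9% in Tau tg. The mean shares were 70.1% ± 4.06 and 71% ± 2.63 (SD, n = 3 each, exact permutation p = 0.8, adjusted p = 0.862). miR-181b-5p took 17.5% to 24.1%, miR-181c-5p 4.01% to 5.73% and miR-181d-5p 2.62% to 4.02%. The groups overlapped in each of these shares.

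The 3p share of miR-181a was low in every sample, while that of miR-181c varied widely. The 3p strand made up 1.77%, 2.48% and 1.89% of miR-181a reads in WT and 1.93%, 2.07% and 3.71% in Tau tg. Since miR-181a-5p comes from both hairpins, these are lower limits for the a-1 hairpin. For miR-181c the 3p share was 15.2%, 1.41% and 3.65% in WT and 13.1%, 22.3% and 9.8% in Tau tg. Its 95% Wilson interval was 0.884% to 2.25% in WT 2 and 19.9% to 25% in Tau tg 2, so the samples differed beyond counting error, which is all that the interval covers. The group means were 6.75% ± 7.4 and 15.1% ± 6.49 (SD, n = 3 each, exact permutation p = 0.3, adjusted p = 0.7).

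A miRNA is known to occur in Ago as isoforms with different 3′ ends, from the cut of Dicer and from later trimming or tailing. Most 5p reads began at the reference base and matched a family hairpin to the end. Such reads were 89.9% to 93% of miR-181a-5p, 77.1% to 85% of miR-181b-5p, 91.8% to 95.3% of miR-181c-5p and 84.5% to 90.2% of miR-181d-5p. The members differed in which 3′ end was most abundant. The leading reads of the a and b members are shown to make these ends visible.

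miR-181a-5p, 23 nt: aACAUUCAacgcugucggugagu
miR-181a-5p, 21 nt: aACAUUCAacgcugucgguga
miR-181a-5p, 22 nt: aACAUUCAacgcugucggugag
miR-181a-5p, 20 nt: aACAUUCAacgcugucggug
miR-181b-5p, 21 nt: aACAUUCAuugcugucggugg
miR-181b-5p, 23 nt: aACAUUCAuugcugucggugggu
miR-181b-5p, 24 nt: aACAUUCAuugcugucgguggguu
miR-181b-5p, 20 nt: aACAUUCAuugcugucggug

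The reference form of miR-181a-5p, its 23-nt read, was at 5002, 4738 and 2578 RPM in WT brain and at 3522, 3081 and 1545 RPM in Tau tg brain. It was 41.7%, 44.2% and 24.9% of miR-181a-5p reads in WT and 26.5%, 25.6% and 18.7% in Tau tg. WT 3 lay within the Tau tg range, so the groups overlapped. Groups did not overlap in this share in 10.5% of 239 miRNAs. The difference of the mean shares was -13.4 percentage points (n = 3 each, exact permutation p = 0.3, adjusted p = 0.7). The log2 fold change of the read was -0.62 (SE 0.39, limma adjusted p = 0.584), over the unadjusted limit. It came under that limit with median-of-ratios scaling (-0.77), without a filter (-0.62) and without WT 3 (-0.93). The limma adjusted p-values there were 0.588, 0.519 and 0.689. All other settings left it over the limit.

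The 21-nt read of miR-181a-5p was at 2304, 2219 and 2215 RPM in WT brain and at 2707, 2735 and 1528 RPM in Tau tg brain, and its log2 fold change was -0.00 (SE 0.41). The 22-nt read ranged from 749 to 1772 RPM in WT brain and from 1492 to 2290 RPM in Tau tg brain. The 20-nt read ranged from 820 to 934 RPM in WT brain and from 685 to 1249 RPM in Tau tg brain. All 4 leading reads of miR-181a-5p overlapped between groups.

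The leading miR-181b-5p read in 5 of the 6 samples was 21 nt long, shorter than its 24-nt reference by the last bases, while in Tau tg 2 the 23-nt read led. It was at 1191, 665 and 1304 RPM in WT brain and at 1349, 478 and 725 RPM in Tau tg brain. The reference form took 8.1%, 10.7% and 10.1% of miR-181b-5p reads in WT and 9.59%, 12.8% and 17.2% in Tau tg (exact permutation p = 0.3, adjusted p = 0.7). The 23-nt read of miR-181b-5p ranged from 459 to 658 RPM in WT brain and from 310 to 703 RPM in Tau tg brain. Here too the groups overlapped.

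**Figure D3:**
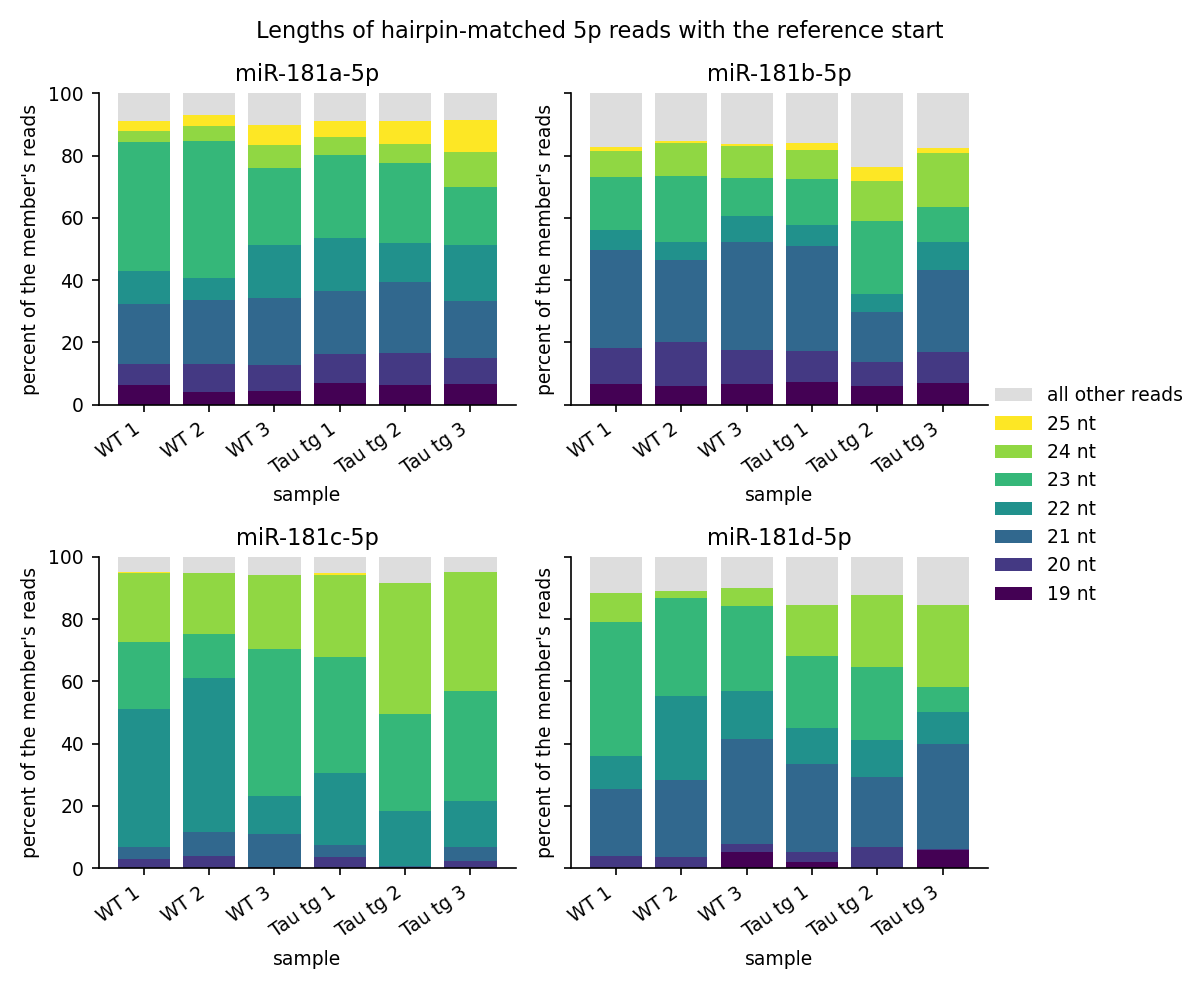
Percent of each 5p member's reads (vertical axis) by length, for reads that start at the reference base and match a family hairpin throughout, in each of the 6 samples, with every other read in grey. The 23-nt band of miR-181a-5p is widest in WT 1 and WT 2 (41.7% and 44.2%), and the 24-nt band of miR-181d-5p is wider in each Tau tg sample (16.5% to 26.3%) than in any WT sample (2.15% to 9.11%).

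Longer 3′ ends had a higher mean share in Tau tg for each of the 4 5p members and a lower one for both 3p members. Reads with the reference start that ran past the reference end were 7.1%, 8.57% and 15.7% of miR-181a-5p in WT and 11.7%, 14.6% and 22.6% in Tau tg. For miR-181b-5p they were 2.32%, 0.697% and 1.17% in WT and 3.32%, 5.83% and 2.98% in Tau tg. The groups overlapped for miR-181a-5p and did not overlap for miR-181b-5p.

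The same share of miR-181c-5p was 46.3%, 35.8% and 73.5% in WT and 65.7%, 77% and 75.5% in Tau tg, with WT 3 among the Tau tg samples. For miR-181d-5p it was 17.4%, 6.81% and 8.02% in WT and 19.4%, 32.1% and 32.5% in Tau tg, with no overlap. For miR-181a-5p, hairpin-matched reads shorter than the reference also had the higher share in Tau tg (43%, 40.7% and 51.3% in WT, 54%, 51.9% and 51.6% in Tau tg), and its mean read length was 22.11 nt in WT and 22.04 nt in Tau tg. The mean longer share was 10.2% in WT and 2.17% in Tau tg for miR-181a-1-3p and 3.11% and 0.0587% for miR-181c-3p, with overlapping groups. The 4 differences of means of the 5p members were 5.86, 2.65, 20.9 and 17.2 percentage points in the order a, b, c and d. Over 234 miRNAs with a mean of at least 100 RPM the median difference was 0.0361 points. Groups did not overlap in 6.41% of these 234 miRNAs and were higher in Tau tg without overlap in 3.85%. This measure was chosen after its values were seen and was not tested.

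The 24-nt reads of the a, c and d members and the 25-nt read of the b member end in added U residues that their hairpins encode, and they are shown for that reason.

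miR-181a-5p, 24 nt: aACAUUCAacgcugucggugaguu
miR-181b-5p, 25 nt: aACAUUCAuugcugucgguggguuu
miR-181c-5p, 24 nt: aACAUUCAaccugucggugaguuu
miR-181d-5p, 24 nt: aACAUUCAuuguugucgguggguu

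The 24-nt read of miR-181d-5p was at 49.2, 8.13 and 36.7 RPM in WT brain and at 97.5, 141 and 102 RPM in Tau tg brain. Every Tau tg sample exceeded every WT sample. It was under the unadjusted limma limit, at a log2 fold change of 2.12 (SE 0.73, interval 0.70 to 3.55, limma adjusted p = 0.584). WT 2, the lowest sample, bore on this, since without it the value was 1.37 and over that limit (limma adjusted p = 0.687). It was also over the limit with DESeq2 (1.73, adjusted p = 0.983) and with limma without a trend (adjusted p = 0.608). As a share of miR-181d-5p, this read was 5.7% ± 3.48 in WT and 22.1% ± 5.02 in Tau tg (SD, n = 3 each). The 23-nt reference form took 43%, 31.4% and 27.3% in WT and 23%, 23.3% and 7.91% in Tau tg, also without overlap.

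The 25-nt read of miR-181b-5p, a form that Mir181b-2 alone encodes to its end, was at 49.7, 14.9 and 23.9 RPM in WT brain and at 79.4, 135 and 44.6 RPM in Tau tg brain. WT 1 lay above Tau tg 3. The log2 fold change was under the unadjusted limit at 1.55 (SE 0.75, limma adjusted p = 0.584). It was over that limit with DESeq2 (1.42, adjusted p = 1), edgeR and limma without a trend, as were the miR-181c-3p, 21-nt miR-181a-1-3p and 21-nt miR-181c-5p reads described below.

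The 24-nt read of miR-181a-5p was at 426, 488 and 738 RPM in WT brain and at 783, 769 and 926 RPM in Tau tg brain, and the groups did not overlap. That of miR-181c-5p was at 184, 156 and 213 RPM in WT brain and at 282, 274 and 230 RPM in Tau tg brain, again without overlap. Neither passed limma at an unadjusted p under 0.05 (adjusted p = 0.584 for both).

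**Figure D4:**
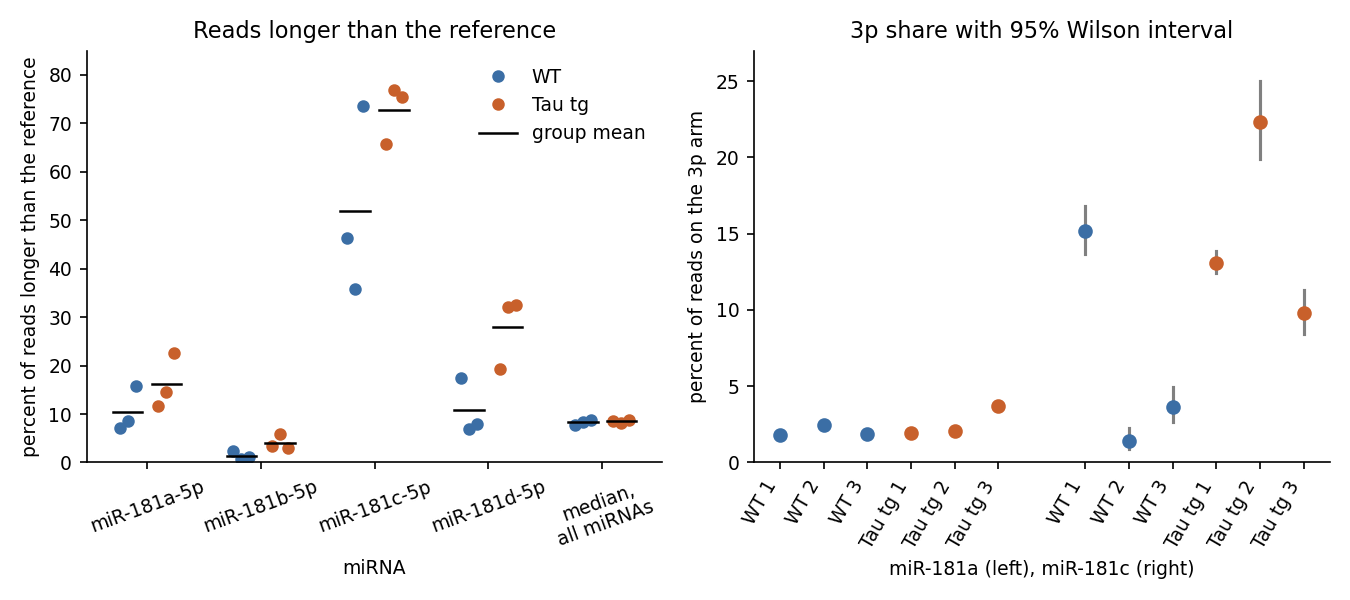
Left, percent of reads longer than the reference for the 4 5p members and the median over 234 miRNAs, with WT in blue, Tau tg in orange and group means as black lines. The miR-181d-5p values run from 6.81 to 17.4 in WT and from 19.4 to 32.5 in Tau tg, while the median over miRNAs stays between 7.71 and 8.83. Right, percent of miR-181a and miR-181c reads on the 3p arm in each sample with 95% Wilson intervals, where miR-181c runs from 1.41 in WT 2 to 22.3 in Tau tg 2.

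Over all member sequences, 211 of 339 had a mean of at least 1 RPM and were tested. Of these, 14 had a limma p under 0.05, and 0 passed adjustment. That is 6.64% of the member sequences, against 2.23% of the 36070 sequences tested. The background share depended on abundance. When only the 3899 sequences averaging 10 RPM or more were fitted, 4.28% of them had a limma p under 0.05. Of the 61 member sequences among these, 4 did. The excess over the background was therefore smaller among abundant sequences. The 14 were 13 higher and 1 lower in Tau tg, where 1.44% and 0.787% of all sequences tested were called in these directions. A sequence could pass the filter through 1 group alone, as the 20-nt miR-181a-1-3p read described below did. By edgeR 4 of the member sequences had an unadjusted p under 0.05, 3 of them higher, and by DESeq2 10, with 5 higher and 5 lower, against 7.11% and 9.27% of all sequences. Leaving out WT 2 lowered the limma count of 14 to 5, and leaving out Tau tg 1 or Tau tg 2 lowered it to 8 or 7. The shares of all sequences so called were 2.28%, 1.9% and 1.55%. The median log2 fold change was 0.15 over the member sequences and -0.16 over all sequences. Among member sequences above 0 in every sample, groups did not overlap in 11 of 74, or 14.9%, against 9.31% of all such sequences. Neither the medians nor these shares were matched for abundance. The member sequences are isoforms of a few miRNAs from the same libraries, so they are not independent of each other.

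Reads of both 3p members were among those with a limma p under 0.05. The miR-181a-1-3p reads shown end before their reference, and the miR-181c-3p read is the reference form.

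miR-181a-1-3p, 21 nt: aCCAUCGAccguugauuguac
miR-181a-1-3p, 20 nt: aCCAUCGAccguugauugua
miR-181c-3p, 22 nt: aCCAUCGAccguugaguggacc

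The 20-nt read of miR-181a-1-3p was named after its values were seen, since it had the smallest adjusted p of the member sequences. It was at 0.468, 0 and 0.917 RPM in WT brain, all below the limit of 3 reads, and at 16.4, 30.1 and 26.6 RPM in Tau tg brain (limma adjusted p = 0.193). The 21-nt read was at 82.9, 4.07 and 43.1 RPM in WT brain and at 99.9, 45.2 and 138 RPM in Tau tg brain. Its groups overlapped, and its log2 fold change was 1.70 (SE 0.74, limma adjusted p = 0.584). WT 2 decided this value, which was 0.51 without it (limma adjusted p = 0.687).

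The full-length 22-nt read of miR-181a-1-3p, its leading form in 5 of the 6 samples, ranged from 72.5 to 205 RPM in WT brain and from 117 to 156 RPM in Tau tg brain. That of miR-181c-3p was at 18.3, 6.1 and 11 RPM in WT brain and at 30.2, 97 and 18.8 RPM in Tau tg brain, which did not overlap. Its log2 fold change was 1.73 (SE 0.86, limma adjusted p = 0.584). Tau tg 2 was the highest sample, and without it the value was 1.07 (limma adjusted p = 0.686).

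The 1 member sequence that was lower in Tau tg at a limma p under 0.05 was a short form of miR-181c-5p.

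miR-181c-5p, 21 nt: aACAUUCAaccugucggugag

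It was at 31.4, 62.3 and 97.2 RPM in WT brain and at 43.1, 1.67 and 27.8 RPM in Tau tg brain. WT 1 lay below Tau tg 1. The log2 fold change was -1.96 (SE 0.81, limma adjusted p = 0.584), and it was -0.72 without Tau tg 2, the lowest sample. By the mean over the 6 samples the leading miR-181c-5p read was the 23-nt form, 1 base longer than its reference, at 184, 113 and 425 RPM in WT brain and at 398, 203 and 212 RPM in Tau tg brain. It led in WT 3 and Tau tg 1 alone, while the 22-nt reference form led in WT 1 and WT 2 (371 and 398 RPM) and the 24-nt form in Tau tg 2 and Tau tg 3. By the same mean the leading miR-181d-5p read was the 21-nt form, which ranged from 93.5 to 211 RPM in WT brain and from 131 to 168 RPM in Tau tg brain. Its 23-nt reference form had the higher mean in WT (174 ± 56.9 against 140 ± 62.2 RPM, SD, n = 3 each), and in Tau tg 2 both the 23-nt and the 24-nt forms exceeded it.

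**Figure D5:**
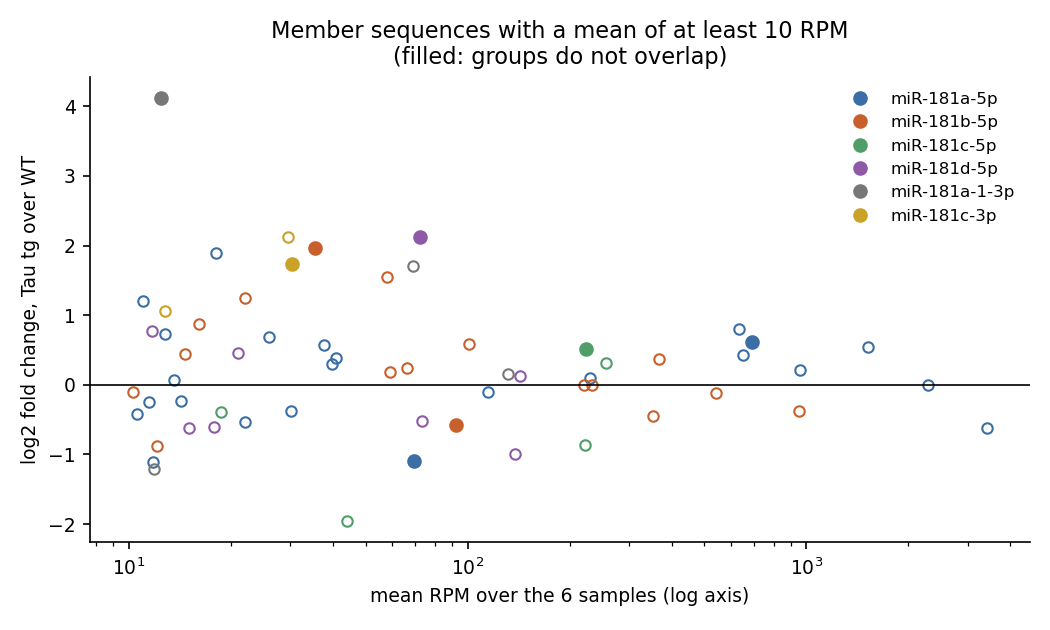
Log2 fold change of Tau tg over WT (vertical axis) against mean RPM (log axis) for the 61 member sequences that averaged 10 RPM or more, coloured by member, with filled points where the groups do not overlap. The most abundant sequence, the 23-nt miR-181a-5p read, lies at -0.62, and the highest point is the 20-nt miR-181a-1-3p read, whose 3 WT samples held 1 read or none.

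Some reads carried up to 3 bases at the 3′ end that no family hairpin encodes. They made up 5.42% to 8.28% of miR-181a-5p and 12% to 18.6% of miR-181b-5p. Tails of A alone were the most frequent kind in both, at 3.66% to 5.03% of miR-181a-5p and 7.54% to 11.3% of miR-181b-5p. Tails of U alone were 2.63%, 3.7% and 2.51% of miR-181b-5p in WT and 4.43%, 6.65% and 3.74% in Tau tg. Those of miR-181a-5p were 1.02% to 2.66% in WT and 1.58% to 1.86% in Tau tg. Neither share was tested.

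Because miR-181b-5p and miR-181d-5p differ by 1 base, the annotation of their reads rests on C12U. For every 100 miR-181b-5p reads there were 14.1 to 20.1 miR-181d-5p reads. The ratio was not the same at every length, at 9.8 to 28.2 for 21-nt reads and 3.01 to 36.8 for 24-nt reads.

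A read that starts at another base carries another seed. The share of miR-181a-5p reads with the reference start was 97.9%, 98.8% and 98% in WT and 97.8%, 97.7% and 98% in Tau tg (exact permutation p = 0.3, adjusted p = 0.7). For miR-181b-5p it was 97%, 97.7% and 95.2% in WT and 97.8%, 95.4% and 98.4% in Tau tg (exact permutation p = 0.5, adjusted p = 0.778). The most frequent shifted seed, CAUUCA at positions 2 to 7, lies 1 base downstream. It was carried by 26.4 to 173 RPM of miR-181a-5p and 34.8 to 112 RPM of miR-181b-5p.

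The study asked how toxic the seeds of Ago-bound RNAs are. Each 6mer seed (positions 2 to 7) came with a viability in percent. It is an average over mouse cell lines, not brain tissue, after transfection of a small RNA with that seed. The 5p seed ACAUUC had a viability of 86.7%, the 3p seed CCAUCG 68.4% and the shifted seed CAUUCA 61.8%. Members made up 16%, 10.2% and 9.41% of reads with a seed viability of at least 80% in WT and 15.9%, 13% and 8.27% in Tau tg. Weighted by RPM, the mean viability of member reads was 85.8% to 86.1% in every sample.

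All reads with the seed ACAUUC, whatever their annotation, summed to 16974, 14392 and 15363 RPM in WT brain and to 18783, 16027 and 11939 RPM in Tau tg brain. Members supplied 98.8% to 99.1% of them. Reads with this seed that were annotated to miR-543-3p stood at 5.27 to 22.4 RPM, which does not count its reads with other seeds. The log2 fold change of the seed was -0.02 (SE 0.36, interval -0.72 to 0.68, limma adjusted p = 0.992), against 4.31% of the 3987 seeds with a limma p under 0.05. The sign was positive under median-of-ratios scaling, at 0.24. The seed CCAUCG summed to 372, 295 and 198 RPM in WT brain and to 416, 448 and 384 RPM in Tau tg brain. These groups did not overlap, as in 11% of the 1966 seeds above 0 in every sample. Its log2 fold change was 0.57 (SE 0.43, interval -0.28 to 1.42, limma adjusted p = 0.991).

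The miRNAs whose RPM followed miR-181a-5p most closely over the 6 samples, among 270 with a mean of at least 100 RPM, were miR-138-1-3p (Pearson r = 0.949), miR-676-3p (r = 0.887) and miR-194-5p (r = 0.877). These values share libraries and scaling and are a description. Within the family, r with miR-181a-5p was 0.56 for miR-181b-5p, 0.66 for miR-181c-5p, 0.64 for miR-181d-5p, 0.47 for miR-181c-3p and -0.43 for miR-181a-1-3p.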

How the data were processed

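Ago-bound small RNAs of 6 mouse brain samples, 3 WT and 3 Tau tg by their titles, were analysed. The authors trimmed reads with Trim Galore, compiled them into unique sequences, matched these to small RNAs with BLAST and scaled them, in their SPOROS pipeline, to the deposited RPM values. Rare reads were removed by the authors, so low values are incomplete. The seed viability score was deposited by the authors in percent and was used as given. The columns of the authors' totals were not used. The genome build of the miRNA annotation is not given in the sources used here.

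All RPM values were whole multiples of 1 read (100% within 0.1 read), which gave 998248 to 6879551 reads per sample in the table, fewer than the authors scaled to, since the columns sum to 915719 to 978886 RPM. PCR copies could not be told apart, so the Wilson intervals and the limit of 3 reads cover counting error only. The limma intervals rest on the spread between samples. miRNAs, sequences and seeds with a mean of at least 1 RPM were tested across the whole table with limma 3.58.1, with a trend, on log2(RPM + 1), a scale that understates changes of low rows. P-values were adjusted by Benjamini-Hochberg. Share measures were tested by exact permutation of the group labels (20 assignments, two-sided), adjusted over 14 measures. edgeR 4.0.16 and DESeq2 1.42.0 were each run on the whole reads in 1 setting. The fits with other pseudocounts, filters, scalings, a replicate block and each sample left out used limma. A read was taken as a family isoform by its match to GENCODE M21 hairpins. Of 276 miRNAs with a mean of at least 100 RPM, 241 matched RefSeq by name. Fits were tested on simulated data with less spread than the sequences and seeds have here. Their edgeR common dispersion, a measure of spread between samples, was 4.87 and 1.56. The simulation therefore does not show how the fits behave at that spread. Software was Python 3.11.15 (SciPy 1.17.1, pandas 2.3.3, NumPy 2.4.6), R 4.3.3 and, for plots, Matplotlib 3.10.9.

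The members and lists were chosen with earlier results of these data known. Named were all members, the most abundant read of each, the 4 most abundant reads of miR-181a-5p and miR-181b-5p, up to 3 reads per direction with a limma p under 0.05 by mean RPM, and the 3 miRNAs with the largest Pearson r with miR-181a-5p. The share of reads longer than the reference was added after seeing the data.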

Additional observations from a re-analysis of the deposited data

Results flagged for a closer look

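The other 3p arms of the family are no members and entered none of the comparisons above. In 3 of them at least 1 Tau tg sample lay above every WT sample and above the limit of 3 reads. Only this direction was searched for, so the direction is no result, and the share of all miRNAs that meet this rule was not computed. miR-181a-2-3p was at 21.5, 4.74 and 7.34 RPM in WT brain, while Tau tg brain held 23.5, 62.7 and 25.4 RPM (limma adjusted p = 0.896). Its groups did not overlap, as in 9.53% of miRNAs above 0 in every sample. miR-181b-1-3p was at 0 in all 3 WT samples and in Tau tg 2, and in the other Tau tg samples at 4.98 RPM (Tau tg 1, 35 reads) and 15.5 RPM (Tau tg 3, 38 reads). miR-181b-2-3p was seen only in Tau tg 1, the library with the most reads, at 3.13 RPM (22 reads). With 3 samples per group, single samples were not tested as outliers.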

How the results depend on the processing

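None of the 6 members passed an adjusted p under 0.05 in any alternative, and 0 of 6 had an unadjusted p under 0.05, except 1, miR-181c-3p, without WT 1 and with reads found exactly in a hairpin (log2 fold change 1.95). In these settings 7.39% and 3.92% of all miRNAs tested had an unadjusted limma p under 0.05. The lowest and highest log2 fold changes with 1 sample left out were -0.14 and 0.20 for miR-181a-5p, -0.25 and 0.06 for miR-181b-5p, -0.43 and -0.02 for miR-181c-5p, -0.18 and 0.24 for miR-181d-5p, 0.18 and 0.41 for miR-181a-1-3p, 0.80 and 2.60 for miR-181c-3p, and -0.17 and 0.16 for the seed ACAUUC. The sign also turned with hairpin-matched reads for miR-181a-5p (0.01) and miR-181d-5p (-0.01), for miR-181d-5p with edgeR (-0.11), DESeq2 (-0.15) and median-of-ratios scaling (-0.13), and for ACAUUC with edgeR (0.39), DESeq2 (0.30) and median-of-ratios scaling (0.24). The cause was not tested. The count of member sequences at an unadjusted p under 0.05, 14, was 4 with a pseudocount of 5, 4 with a mean of at least 10 RPM, 4 without a trend, 4 with edgeR and 5 to 12 with 1 sample left out. Leaving out WT 2 gave 5, Tau tg 1 gave 8 and Tau tg 2 gave 7.

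Single reads turned sign for the 21-nt miR-181a-5p read with edgeR (0.06), the 23-nt miR-181c-5p read with DESeq2 (-0.03), the 21-nt miR-181d-5p read with median-of-ratios scaling (-0.03) and DESeq2 (-0.15), and the 22-nt miR-181a-1-3p read with these (-0.01 and -0.16). Left-out samples moved them from -0.14 to 0.28, -0.12 to 0.83, -0.13 to 0.46 and -0.21 to 0.53, and the 23-nt miR-181b-5p read from -0.37 to 0.22.

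Among share measures, the difference of the miR-181d-5p share was -0.0126 points with hairpin-matched reads. With 1 sample left out, differences ran from -1 to 3.05 points for the miR-181a-5p share, -2.39 to 0.889 for miR-181b-5p, -0.238 to 0.46 for miR-181d-5p, -0.0455 to 0.844 for the 3p share of miR-181a, -0.159 to 1.03 for hairpin-matched miR-181a-5p and -0.144 to 1.5 for the reference start of miR-181b-5p.

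Same-numbered WT and Tau tg samples did not deviate together (r = -0.00, -0.07 and 0.04 over 689 miRNAs), and pairs of other numbers ranged from -0.13 to 0.11. With 3 samples per group this cannot show whether same-numbered samples were handled together, and the labels do not say. With the replicate block, 0 members and 13 member sequences had an unadjusted p under 0.05, against 3.19% of all miRNAs and 2.24% of all sequences. The block left miR-181c-3p at 1.65, over the unadjusted limit. Depth limits miR-181c-3p and its isoforms most, at 17 reads in WT 2.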
